A study of Mus musculus with 48 samples.

Results

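Stable, folded noncoding RNAs of mouse embryonic stem cells, the products of the genes Rn7sk, Rmrp, Rpph1, Terc, Rny1 and Rny3, were followed across every RNA-seq and ribosome profiling (Ribo-seq) library of the series. They were chosen by name, as the rows of the expression tables whose Ensembl identifiers map to these symbols, and gave 7 rows for 6 genes among 55335 rows, because Rmrp is listed under 2 identifiers. Reads were recorded for 4 of the 6 genes, while Rmrp and Terc were listed at 0 in all 28 RNA-seq and all 4 Ribo-seq libraries. The study asked how the nuclear protein NRDE2, its partner CCDC174 and the RNA helicase MTREX act on RNA in these cells, and here the stable RNAs were compared between mutant and control libraries.

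All cells were embryonic stem cells of a hybrid 129-C57BL/6 background, edited from parental lines that carry tamoxifen-inducible Cre at Rosa26 and grown with serum, LIF and 2i. Each of the 14 RNA-seq groups and each of the 2 Ribo-seq groups held 2 libraries, described as independent replicates. The p-values measure the spread between replicate libraries, pooled over all groups that were fitted together. The SE of a gene is therefore the same in every comparison of 2 groups within a fit, whatever the spread of those groups. Mtrex-KO cells were conditional Mtrex knockout cells given 100 nM 4-hydroxytamoxifen for 3 days, and Mtrex WT cells were the same conditional line labelled wt. Nrde2-KO cells received 100 nM 4-hydroxytamoxifen for 4 days, and the Nrde2 WT cells were the conditional line labelled wt. Nrde2d200 cells lacked an N-terminal stretch of NRDE2, and Nrde2D174R cells carried the D174R mutation. Those 4 groups form the first Nrde2 experiment. No 4-hydroxytamoxifen is recorded for the Mtrex WT or Nrde2 WT cells. In comparisons of Mtrex-KO or Nrde2-KO with WT, effects of the compound and of active Cre cannot be told apart from loss of the gene. In the second Nrde2 experiment WT and Nrde2-KO cells were either untreated or given 0.1 mg/ml cycloheximide (CHX), a blocker of translation, for 4 hours. Ccdc174-dTAG cells expressed CCDC174 fused to the FKBP12F36V degron and were depleted of it by 24 hours in 500 nM dTAG-13. The Ccdc174 WT cells had the fusion without the compound, and both states were sequenced with and without CHX. Knockouts are thus acute losses, and cells that escaped recombination were not counted. The study reports that induced loss of Nrde2 arrested cell growth, and growth differences between knockout and control were not measured here.

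The RNA-seq libraries held 28683644 to 36272309 reads in genes, and the Ribo-seq libraries 3475051 to 5035940. Reads in genes made up 83.6 to 92.1% of the total used by the authors in 26 RNA-seq libraries, but 72.1 and 82.7% in the Mtrex-KO libraries. Levels are given as normalised CPM, meaning the deposited values, reads of a gene scaled to the depth of the library, divided by a median-of-ratios factor for each library. Mtrex RNA itself was 46.4 and 41.6 normalised CPM in the Mtrex-KO libraries against 119 and 112 in Mtrex WT (log2 fold change -1.39, adjusted p = 8.57e-10, limma). Nrde2 RNA was 19.3 and 20.4 normalised CPM in Nrde2-KO against 41.6 and 40.5 in Nrde2 WT of the first experiment, and 19.96 and 19.7 against 53.6 and 52.2 in the second. With CHX this check went against the label, since Nrde2 was at 259 and 250.3 in the libraries labelled Nrde2-KO and at 244 and 225.5 in WT. Nrde2 RNA was higher with CHX in every cell state. In Ccdc174 WT it was at 53.1 and 56.0 without CHX and at 217.9 and 206.2 with it, and in Ccdc174-dTAG at 55.64 and 53.55 against 249 and 230.6. Parp2 and Polr3gl, given further below, were lower in the CHX libraries labelled Nrde2-KO than in WT with CHX. The count covers the whole gene, so it cannot show the deleted stretch alone. Loss of CCDC174 is a loss of protein and has no check in RNA. The stem cell markers Klf4, Nanog, Esrrb, Pou5f1, Tdgf1, Zfp42, Dppa5a and Sox2 stood between 93.9 and 1190 normalised CPM in every RNA-seq library.

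These RNAs act through folded structures and the proteins bound to them. 7SK RNA, the product of Rn7sk, holds the transcription elongation kinase P-TEFb in an inactive particle with HEXIM and LARP7 proteins. Rpph1 makes the RNA subunit of RNase P, which trims the 5′ leader of tRNA precursors, and Rmrp makes the RNA subunit of the related RNase MRP, which acts in ribosomal RNA maturation. Terc makes the RNA that telomerase copies into telomere repeats. Rny1 and Rny3 make Y RNAs, small RNAs bound by the Ro60 and La proteins. All but Terc are products of RNA polymerase III, while Terc is made by RNA polymerase II. MTREX is the helicase that delivers nuclear RNA to the exosome, the chief 3′ to 5′ RNA degrading complex of the nucleus.

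The sequences below were read from the GRCm38 genome, and each matched the GENCODE transcript of that gene. They are shown because a read counts for a gene only where its sequence is found once in the genome and lies in no other gene. Rn7sk (ENSMUSG00000065037, chr9:78175303-78175633, minus strand, 331 bases) is shown from base 1 to base 300, and capitals mark bases that lie in a stretch of 50 bases found once in the genome. Only 90 of its 282 such stretches were unique, those that start at bases 193 to 282, so the 5′ part of 7SK could not yield a unique read of 50 bases.

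Rn7sk: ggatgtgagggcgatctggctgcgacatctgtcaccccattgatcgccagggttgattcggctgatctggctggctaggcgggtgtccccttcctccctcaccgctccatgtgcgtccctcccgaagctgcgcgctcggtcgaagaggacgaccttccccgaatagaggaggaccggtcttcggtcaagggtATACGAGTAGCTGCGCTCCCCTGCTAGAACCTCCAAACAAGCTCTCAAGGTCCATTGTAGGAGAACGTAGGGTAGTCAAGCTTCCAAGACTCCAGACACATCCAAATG

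Exact copies of the 5′ stretches lay at 8 other places. The longest copies were in the annotated RNA genes Gm24447, which shared 192 stretches, and Gm26315 inside Celf2, which shared 186. Rpph1 (ENSMUSG00000092837, chr14:50807449-50807767, minus strand, 319 bases) had no repeated stretch. An annotated exon of Ccnb1ip1 on the same strand, however, covered all but 86 of its bases, namely bases 1 to 35 and 269 to 319. Both ends are shown with the bases outside that exon in capitals.

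Rpph1, bases 1 to 60: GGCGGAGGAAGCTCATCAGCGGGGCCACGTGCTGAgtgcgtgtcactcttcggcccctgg

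Rpph1, bases 244 to 319: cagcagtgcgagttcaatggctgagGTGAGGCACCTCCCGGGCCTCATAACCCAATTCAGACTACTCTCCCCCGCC

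Rny1 (ENSMUSG00000065701, chr6:47788069-47788180, minus strand, 112 bases) and Rny3 (ENSMUSG00000064945, chr6:47781624-47781725, plus strand, 102 bases) lie close together on chromosome 6. They are printed whole for comparison, with capitals on a run near the 5′ end that both hold. All 53 stretches of 50 bases of Rny3 were unique, against 51 of 63 in Rny1, whose other 12 recur at Gm26168 on the same chromosome.

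Rny1: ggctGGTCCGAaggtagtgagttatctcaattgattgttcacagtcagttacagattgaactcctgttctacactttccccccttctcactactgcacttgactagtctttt

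Rny3: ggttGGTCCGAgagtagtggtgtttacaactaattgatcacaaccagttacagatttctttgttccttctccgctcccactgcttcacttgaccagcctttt

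Terc (ENSMUSG00000064796, chr3:96414437-96414859, minus strand, 423 bases) is shown over its first 60 bases, with the template that telomerase copies in capitals.

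Terc, bases 1 to 60: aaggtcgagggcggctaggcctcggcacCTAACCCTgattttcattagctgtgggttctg

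Terc was listed at 0 reads in every library although all of its 423 bases lay in no other annotated gene and all of its 374 stretches of 50 bases were unique. A count of 0 allows up to 3 reads, or 0.0713 to 0.0913 CPM in the RNA-seq libraries and 0.368 to 0.530 CPM in the Ribo-seq libraries, for counting error only. Its protein partner Tert, the catalytic subunit of telomerase, was measured at 22.98 ± 0.347 (SD, n = 2) normalised CPM in Mtrex WT. What set Terc at 0 was not tested, and its 0 is not read as absence of the RNA. Rmrp was listed at 0 under both identifiers. ENSMUSG00000088088 (chr4:43492788-43493058, minus strand) lies wholly inside ENSMUSG00000115420 (chr4:43492783-43493063), which has 10 bases of its own. Reads that fall in more than one gene were not counted by the authors, and of the 765 genes with no exonic base of their own in the GENCODE M21 annotation, 764 were at 0 in all 28 libraries (99.9%). Of the 54389 other genes, 27.5% were at 0 throughout. The 0 of Rmrp is thus no measure of its level.

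Per kilobase of annotated length, the levels of the 4 measured RNAs differed widely. Rn7sk had a median of 19347 normalised CPM per kb over the 28 RNA-seq libraries (13940 to 29987) and Rpph1 a median of 7297 (4008 to 14297). Rny3 had a median of 113 (40.8 to 292) and Rny1 of 63.5 (18.5 to 214). The full length was used, although only the 90 unique stretches of Rn7sk could be counted without ambiguity. In the annotation used here, a read of 50 bases from Rpph1 avoids the Ccnb1ip1 exon only inside bases 269 to 319. Bases 1 to 35 are shorter than such a read. These 2 RNAs are therefore not ranked against each other. Rn7sk alone took 0.515 to 1.11% of the reads in genes of an RNA-seq library. In the Ribo-seq table, which was normalised on its own, the values per kb were 6452 to 13466 for Rpph1, 1719 to 2809 for Rny1, 966 to 2844 for Rny3 and 296 to 485 for Rn7sk. The Y RNAs were nearly level in the WT libraries (means of 2374 for Rny1 and 2407 for Rny3), and Rny1 was above Rny3 in the Nrde2-KO libraries. That assay sequenced fragments left by Benzonase in a detergent lysate cleared by centrifugation and cut from a gel, with no step of ribosome isolation described, and none of these RNAs is translated.

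**Figure D1:**
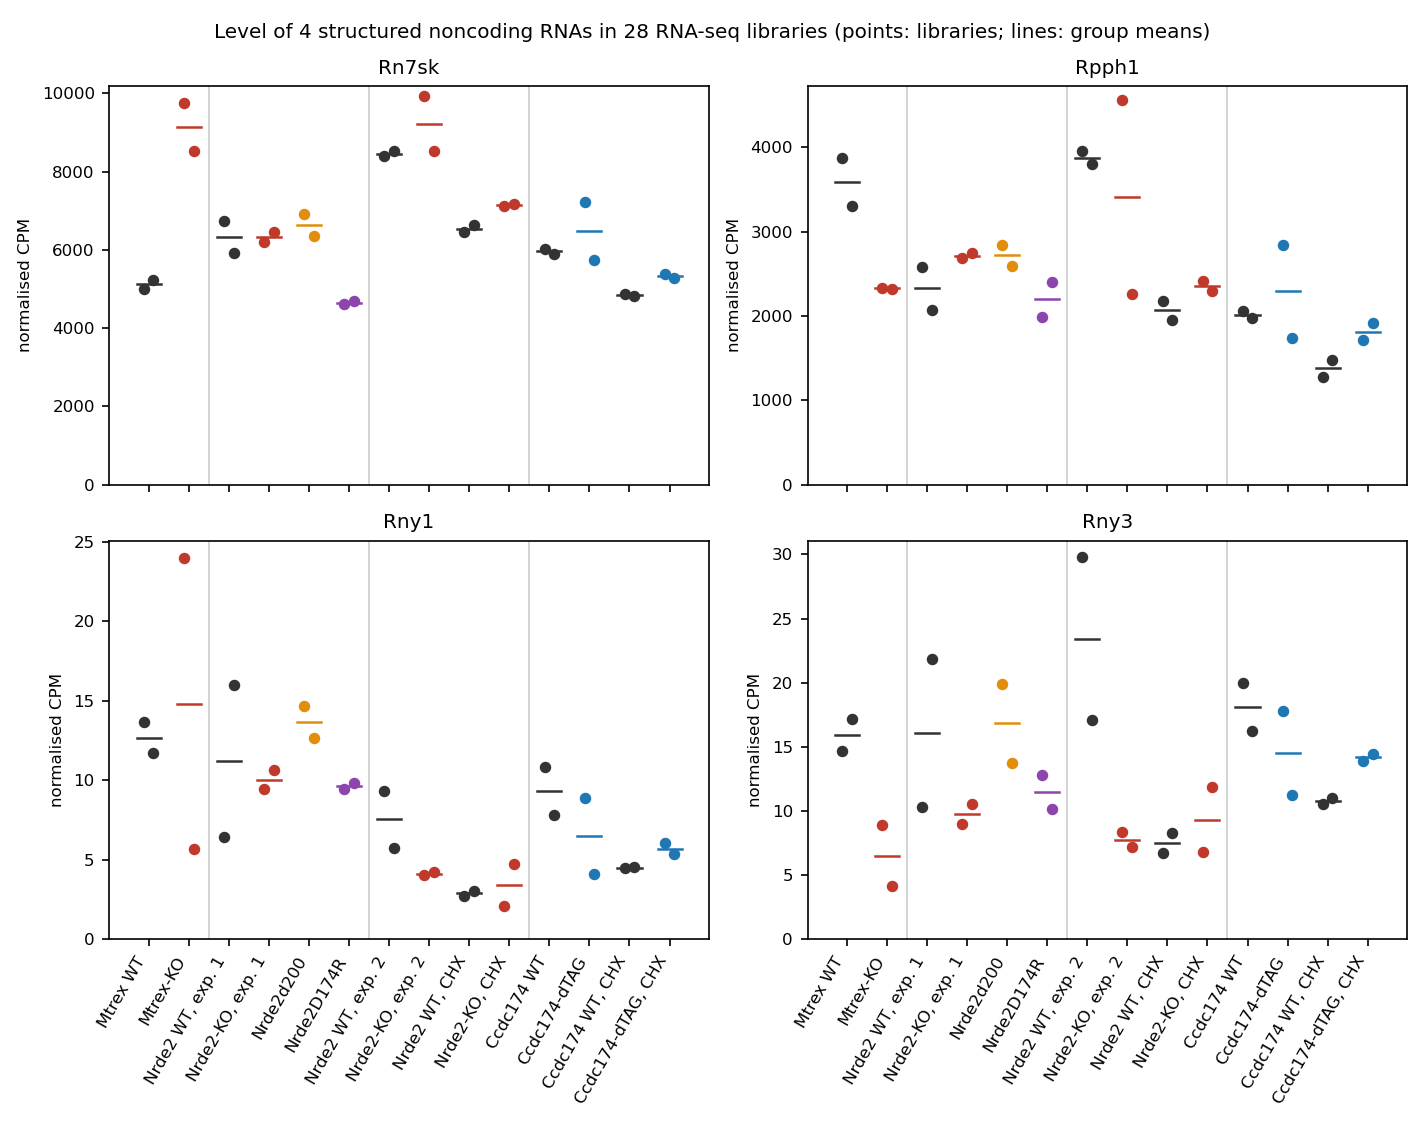
Normalised CPM of Rn7sk, Rpph1, Rny1 and Rny3 (vertical axes, linear from 0) in the 14 RNA-seq groups (horizontal axis, vertical lines separate experiments). Points are libraries and short lines are group means. The Mtrex-KO points lie above Mtrex WT for Rn7sk (8539 and 9747 against 5010 and 5239) and below it for Rpph1 and Rny3.

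The comparison of Mtrex-KO with Mtrex WT asked whether loss of the exosome helicase changed these RNAs. Rn7sk rose to 1.78 times its WT level and Rny3 fell to 0.394 times, while Rpph1 had a lower mean that missed the threshold and Rny1 replicates lay on either side of WT. Of all genes tested, 33.6% changed at least as far as Rn7sk in either direction, and 17.1% at least as far as Rny3. A gene was called at an adjusted p under 0.01 and a log2 fold change over 1 or under -1, by limma over all genes tested. By this rule 1 of the 4 measured RNAs was called in Mtrex-KO, where 26.7% of all 14889 genes tested were called (15.8% higher and 10.9% lower), so the count is near the background.

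Rn7sk measured 9747 and 8539 normalised CPM in the 2 Mtrex-KO libraries and 5010 and 5239 in the 2 Mtrex WT libraries. The groups did not overlap, and both knockout libraries were high. Mtrex WT was low for the series, at rank 12 of the 14 groups, and untreated Nrde2 WT of the second experiment reached 8405 and 8522. Of all 14889 genes tested, 8323 passed the p threshold in Mtrex-KO. The log2 fold change was 0.83 ± 0.132 (SE, n = 2 against 2; 95% interval 0.56 to 1.11; limma, adjusted p = 2.59e-05), past the p threshold but under the fold threshold. The scaling factors were 0.681 and 0.828 in Mtrex-KO and 0.977 and 1.002 in Mtrex WT, and the deposited CPM without that factor gave a log2 fold change of 0.43 (limma, adjusted p = 0.0274). The change of Rn7sk in Mtrex-KO exceeded that in Nrde2-KO of the first experiment by 0.83 on the log2 scale (limma contrast, adjusted p = 0.00160) and that in Ccdc174-dTAG by 0.72 (adjusted p = 0.00341). On the deposited CPM these differences were 0.37 and 0.30 (adjusted p = 0.195 and 0.28), past no threshold. In both contrasts 0 of the 4 RNAs were called (18.7% and 25.4% of all genes called).

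Rpph1 measured 2333 and 2323 normalised CPM in Mtrex-KO and 3877 and 3298 in Mtrex WT. Both knockout libraries were below both WT libraries. The estimate was -0.62 ± 0.241 on the log2 scale (SE; 95% interval -1.13 to -0.11; limma, adjusted p = 0.0311), which missed the threshold. On the deposited CPM it was -1.02 with an adjusted p of 0.00122, which would be called. The Mtrex WT libraries had a high Rpph1 level for the series, second among the 14 groups, and the knockout libraries ranked eighth.

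A ratio between 2 RNAs of the same library is free of the scaling. In Mtrex WT there were 0.774 and 0.629 Rpph1 reads for each Rn7sk read, and in Mtrex-KO there were 0.239 and 0.272. The ratio in Mtrex WT was above that of each of the 24 libraries outside this experiment, which ran from 0.262 to 0.511, whereas 1 knockout value was below that range and the other near its lower end. Rpph1 and Rn7sk thus moved apart between Mtrex WT and Mtrex-KO, whatever the scaling. With 2 libraries against 2 an exact permutation test cannot give a two-sided p below 0.333, so no test of the ratio was made.

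Rny3 measured 8.90 and 4.17 normalised CPM in Mtrex-KO, from 255 and 120 reads, and 14.7 and 17.2 in Mtrex WT, from 536 and 602 reads. Both knockout libraries were below both WT libraries. The log2 fold change was -1.34 ± 0.349 (SE; 95% interval -2.08 to -0.61; limma, adjusted p = 0.00263). The call was lost without Mtrex WT replicate 2 (adjusted p = 0.0242), without Mtrex-KO replicate 2 (log2 fold change -0.82, adjusted p = 0.0584) and in a fit of only these 4 libraries (adjusted p = 0.0168). Rny1 measured 24.0 and 5.69 in Mtrex-KO and 13.7 and 11.7 in Mtrex WT, so the knockout replicates lay on either side of the WT values. Its log2 fold change was -0.11 ± 0.483 (SE; 95% interval -1.12 to 0.91; limma, adjusted p = 0.859), and it was 0.91 without Mtrex-KO replicate 2.

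Rny3 was thus lower relative to Rny1 in both Mtrex-KO libraries. In replicate 2 both Y RNAs were below both WT libraries, and only in replicate 1 was Rny1 above them. There were 0.371 and 0.732 Rny3 reads for each Rny1 read in the knockout libraries, against 1.07 and 1.46 in Mtrex WT. No other RNA-seq library of the series was below 0.949.

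**Figure D2:**
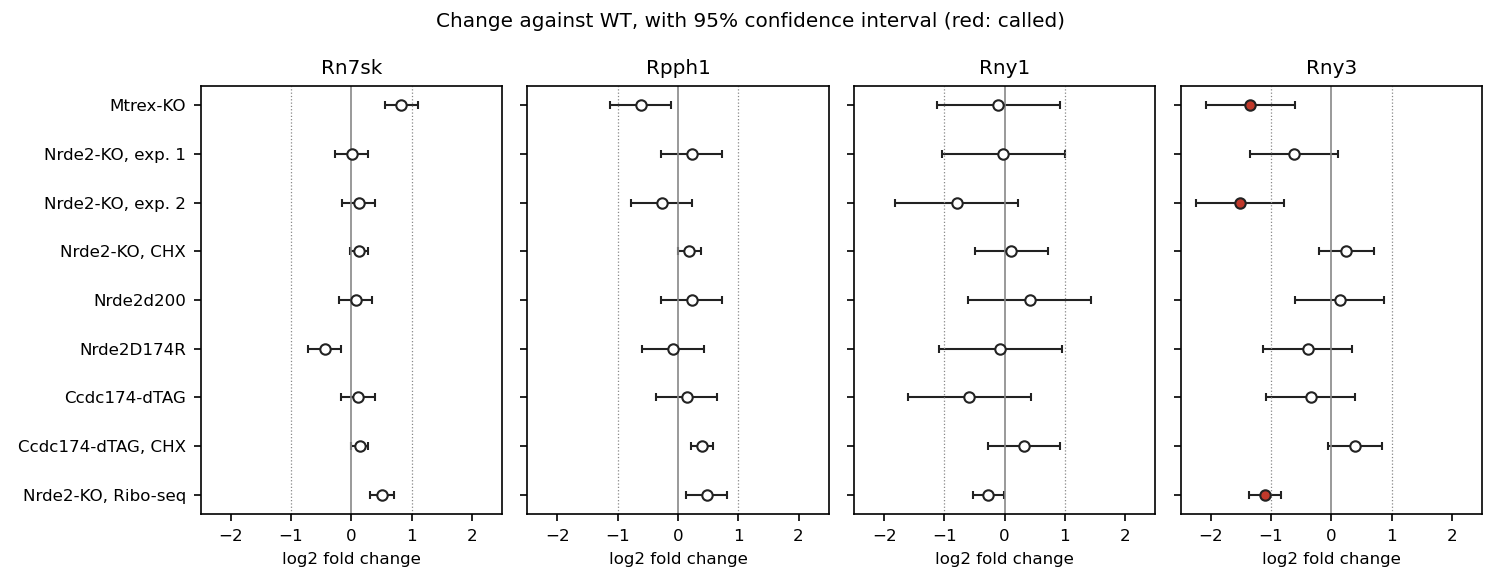
Log2 fold change against WT (horizontal axes) of the 4 measured RNAs in 8 RNA-seq comparisons and in Ribo-seq. Points are estimates of limma, bars are 95% confidence intervals, dotted lines mark -1 and 1, and filled red points were called. Rny3 is called lower in Mtrex-KO, in Nrde2-KO of the second experiment and in Ribo-seq, and Rn7sk is displaced upward in Mtrex-KO (0.83).

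Loss of NRDE2 was measured in 2 experiments without CHX, and Rny3 fell in the second. In the first experiment 0 of the 4 RNAs were called (5.01% of all genes called), and in the second 1 of 4 was called, lower (4.84% of all genes called, 2.42% lower). Rny3 measured 8.96 and 10.52 normalised CPM in Nrde2-KO and 10.3 and 21.9 in WT of the first experiment. These groups overlapped, since WT replicate 1 lay within the knockout range, and the log2 fold change was -0.62 ± 0.349 (SE; limma, adjusted p = 0.194), running from -1.15 to -0.08 as each library was left out. In the second experiment Rny3 measured 8.34 and 7.18 in Nrde2-KO and 29.8 and 17.1 in WT, with no overlap. This fall was -1.51 ± 0.349 on the log2 scale (SE; 95% interval -2.25 to -0.78; limma, adjusted p = 0.00329). That call was lost without WT replicate 1 (log2 fold change -1.12, adjusted p = 0.0588) and without either Nrde2-KO library. The difference between the 2 experiments was not tested.

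WT replicate 2 of the first experiment stood apart for Rprl3, an RNase P RNA-like gene. Rprl3 was at 497 normalised CPM there, against 15.8 to 58.0 in the other 27 RNA-seq libraries. Rn7sk and Rpph1 were lower there than in WT replicate 1, at 5916 against 6748 and 2072 against 2586. In the same library Rny1 was at 15.98 and Rny3 at 21.9, against 6.43 and 10.3 in WT replicate 1. Without this library, the log2 fold change in Nrde2-KO of the first experiment was -0.08 for Rny3 and 0.62 for Rny1 (limma, adjusted p = 0.902 and 0.464). Without WT replicate 1 it was -1.15 and -0.66 (adjusted p = 0.0408 and 0.426).

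Rn7sk changed little with loss of NRDE2 in RNA-seq. It measured 6213 and 6466 normalised CPM in Nrde2-KO against 6748 and 5916 in WT of the first experiment, where the groups overlapped (log2 fold change 0.00 ± 0.132, SE; 95% interval -0.27 to 0.28; limma, adjusted p = 0.985). In the second experiment it measured 9926 and 8529 against 8405 and 8522, narrowly without overlap, with a log2 fold change of 0.12 (95% interval -0.16 to 0.40, adjusted p = 0.520). The levels of the second experiment were above those of the first in WT and knockout alike.

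Rpph1 measured 2686 and 2742 in Nrde2-KO against 2586 and 2072 in WT of the first experiment (log2 fold change 0.23, limma, adjusted p = 0.501), without overlap. In the second it measured 4561 and 2257 against 3950 and 3796 (log2 fold change -0.27, adjusted p = 0.421), and the 2 knockout libraries differed from each other more than the groups did. Rny1 measured 9.44 and 10.6 against 6.43 and 15.98 in the first experiment and 4.03 and 4.23 against 9.36 and 5.75 in the second, with overlap in the first experiment but not in the second. Its log2 fold change was -0.02 and -0.80, and neither passed the threshold (adjusted p = 0.982 and 0.226).

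The Nrde2 mutants left all 4 RNAs uncalled, with 2.65% of all genes called in Nrde2d200 and 0.215% in Nrde2D174R. Rn7sk was at 6925 and 6358 normalised CPM in Nrde2d200, which overlapped with WT of the first experiment. It was at 4614 and 4694 in Nrde2D174R, below both WT libraries and the lowest group mean of all 14. The log2 fold change in Nrde2D174R was -0.44 ± 0.132 (SE; 95% interval -0.72 to -0.16; limma, adjusted p = 0.0983). Rpph1 was at 2842 and 2597 in Nrde2d200, just above both WT libraries (log2 fold change 0.23, limma, adjusted p = 0.566), and at 1990 and 2400 in Nrde2D174R, which overlapped with WT. Rny1 was at 14.7 and 12.7 in Nrde2d200 and at 9.49 and 9.85 in Nrde2D174R. Rny3 was at 19.9 and 13.8 in Nrde2d200 and at 12.8 and 10.1 in Nrde2D174R. Every Y RNA value of both mutants lay inside the range of the 2 WT libraries except that of Rny3 in Nrde2D174R replicate 2, which was just below it. These comparisons and that of Nrde2-KO in the first experiment share the same WT libraries.

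Depletion of CCDC174 also left all 4 RNAs uncalled, both without CHX (1.38% of all genes called) and with CHX (0.911% called). Without CHX, Rn7sk measured 7230 and 5736 normalised CPM in Ccdc174-dTAG and 6033 and 5893 in Ccdc174 WT. Rpph1 measured 2840 and 1744 against 2054 and 1974. Rny1 measured 8.89 and 4.10 against 10.8 and 7.80. Rny3 measured 17.8 and 11.2 against 20.02 and 16.3. In all 4 cases the groups overlapped, and replicate 1 of Ccdc174-dTAG was above replicate 2. The adjusted p of limma ran from 0.491 for Rny1 to 0.771 for Rpph1.

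With CHX, all 4 RNAs were higher in both Ccdc174-dTAG libraries than in both WT libraries. How many of all genes separated in this way was not counted, so the separation of all 4 is not read as a joint rise. Of all genes tested, 57.3% changed at least as far as Rn7sk in either direction. The share was 15.8% for Rpph1, 23.3% for Rny1 and 16.3% for Rny3. Rpph1 measured 1715 and 1914 normalised CPM against 1278 and 1479, up by 0.40 ± 0.0853 on the log2 scale (SE; 95% interval 0.21 to 0.59; limma, adjusted p = 0.00877), past the p threshold but under the fold threshold. Rn7sk measured 5390 and 5286 against 4879 and 4832, Rny1 6.07 and 5.34 against 4.504 and 4.525, and Rny3 13.9 and 14.5 against 10.6 and 10.998. Their log2 fold changes of 0.14, 0.32 and 0.39 did not pass the threshold (adjusted p = 0.168, 0.439 and 0.197). The effect of Ccdc174-dTAG with CHX did not differ detectably from that without it for any of the 4, with adjusted p of 0.575 to 0.982 for the interaction in limma (0.0727% of all genes called).

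In the CHX libraries labelled Nrde2-KO, 0 of 4 RNAs were called against WT with CHX (4.57% of all genes called). Rn7sk measured 7117 and 7178 normalised CPM against 6450 and 6647 in WT, and Rpph1 2414 and 2291 against 2178 and 1956. Both RNAs were higher in both libraries labelled Nrde2-KO, by 0.13 and 0.19 on the log2 scale (limma, adjusted p = 0.148 and 0.0991). Rny1 measured 2.08 and 4.72 against 2.74 and 3.06, and Rny3 6.78 and 11.9 against 6.77 and 8.33, with overlap in both cases.

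For Rny3 the effect of Nrde2-KO differed with CHX. The log2 fold change was -1.51 without CHX and 0.25 with it, and the interaction was 1.77 ± 0.380 (SE; 95% interval 0.95 to 2.58; limma, adjusted p = 0.0277), which passed a threshold of 0.05 but not that of 0.01, so that 0 of the 4 RNAs were called (0.172% of all genes called). Over its alternatives it ran from 1.37 to 2.16, with an adjusted p of 0.00802 to 0.12. The same 8 libraries can be read the other way round, as a fall of Rny3 with CHX in WT but not in the libraries labelled Nrde2-KO, because both readings use the same untreated WT libraries. Nrde2 RNA was not lower in those CHX libraries, as given above. Parp2 and Polr3gl, which fell in untreated Nrde2-KO, were lower in both of them than in both WT libraries with CHX. Parp2 measured 109 and 108 normalised CPM against 142 and 146 (log2 fold change -0.41, limma, adjusted p = 5.87e-05). Polr3gl measured 2.75 and 2.78 against 4.19 and 3.496 (log2 fold change -0.44, adjusted p = 0.0675).

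CHX lowered the Y RNAs in Nrde2 WT cells. Of the 4 RNAs 2 were called there, both lower (14.1% of all genes called, 2.91% lower). Rny3 went from 29.8 and 17.1 normalised CPM without CHX to 6.77 and 8.33 with it, with no overlap (log2 fold change -1.56 ± 0.269, SE; 95% interval -2.13 to -0.98; limma, adjusted p = 0.000165). Rny1 went from 9.36 and 5.75 to 2.74 and 3.06 (log2 fold change -1.27 ± 0.343, SE; limma, adjusted p = 0.00512), a call that was lost without any of WT replicate 1 untreated, WT replicate 1 with CHX or WT replicate 2 with CHX (adjusted p = 0.0690, 0.0338 and 0.0187). Rpph1 went from 3950 and 3796 to 2178 and 1956 (log2 fold change -0.91, adjusted p = 0.00490) and Rn7sk from 8405 and 8522 to 6450 and 6647 (log2 fold change -0.37, adjusted p = 0.00743), both past the p threshold but under the fold threshold.

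In the 3 other cell states 0 of 4 RNAs were called with CHX. The share of all genes called was 14% in Nrde2-KO, 15.3% in Ccdc174 WT and 14.5% in Ccdc174-dTAG. Rn7sk had a lower mean with CHX in each, by -0.36, -0.30 and -0.27 on the log2 scale (limma, adjusted p = 0.00799, 0.0246 and 0.0372). Its libraries with and without CHX did not overlap in any of the 4 states. In the libraries labelled Nrde2-KO the other 3 RNAs overlapped between CHX and no CHX (adjusted p of 0.123 to 0.517). In Ccdc174 WT the mean log2 changes of Rpph1, Rny1 and Rny3 were -0.55, -0.99 and -0.73 (adjusted p = 0.0622, 0.0212 and 0.0283), with no overlap. In Ccdc174-dTAG they were -0.30, -0.09 and 0.00, with overlap in each. CHX changed many messages in the same libraries, and normalised CPM gives shares of the library, so a lower share and fewer molecules per cell cannot be told apart here, nor in any other bulk comparison can fewer cells of a type and less RNA per cell.

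**Figure D3:**
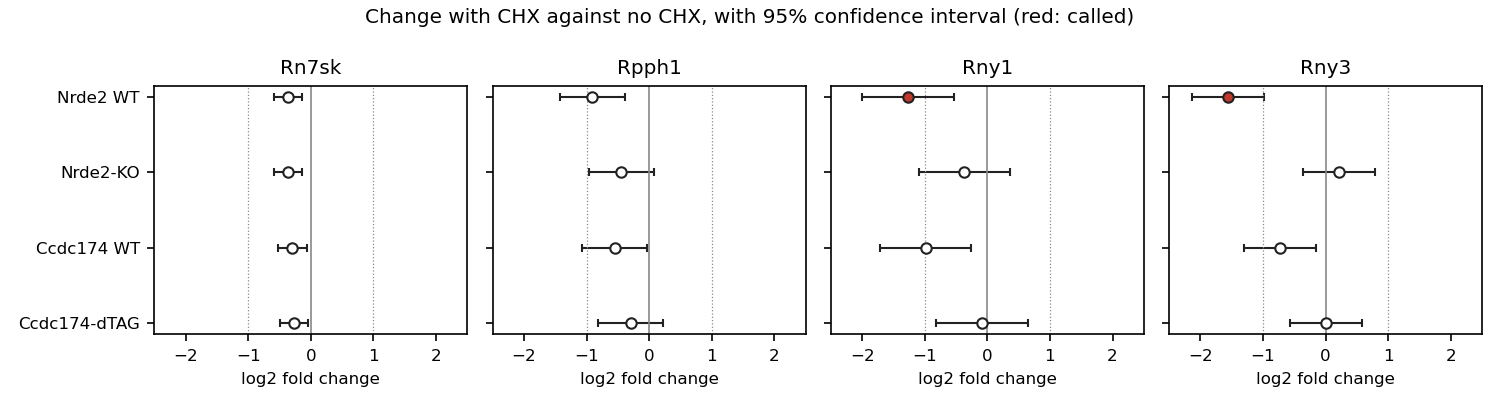
Log2 fold change with CHX against no CHX (horizontal axes) of the 4 RNAs in 4 cell states. Points are estimates of limma, bars are 95% confidence intervals, dotted lines mark -1 and 1, and filled red points were called. Rn7sk is lower in all 4 states (-0.37 to -0.27), and the 2 calls are Rny1 and Rny3 in Nrde2 WT.

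In Ribo-seq of Nrde2-KO against WT, Rny3 fell and Rn7sk rose. Of the 4 RNAs 1 was called, lower (6.42% of all genes called, 2.8% lower), as the Nrde2 message was, which fell by 2.16 on the log2 scale. Rny3 measured 128 and 98.5 normalised CPM in Nrde2-KO and 290.05 and 201 in WT, with no overlap (log2 fold change -1.10 ± 0.129, SE; 95% interval -1.37 to -0.83; limma, adjusted p = 1.48e-06). The fold was under the threshold without WT replicate 1 (-0.84), without Nrde2-KO replicate 2 (-0.92) and on the CPM as deposited (-0.95). Rn7sk measured 127 and 161 against 103 and 97.8, without overlap, up by 0.51 ± 0.0952 on the log2 scale (SE; limma, adjusted p = 0.000309), under the fold threshold. Rpph1 measured 4296 and 3052 against 2058 and 3288, and Rny1 244 and 193 against 315 and 217, with overlap in both (adjusted p = 0.0281 and 0.102).

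The change of Rn7sk in Ribo-seq exceeded that in the RNA-seq of the first experiment by 0.50 on the log2 scale (interaction of assay and genotype, 95% interval 0.18 to 0.82; limma, adjusted p = 0.0368), with 0 of 4 called (1.18% of all genes called). Over its alternatives this difference ran from 0.33 to 0.67, with an adjusted p of 0.0132 to 0.181. For Rny3 the corresponding difference was -0.48 (95% interval -1.30 to 0.33, adjusted p = 0.421), which was not detectable with these libraries. The Ribo-seq libraries recorded 707 to 1235 reads of Rn7sk and 711 to 2223 of Rny3, and the Poisson error of such counts is small.

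The ratio of Rny3 to Rny1 gives a view of the Y RNAs that needs no scaling. In the first Nrde2 experiment it was 1.60 and 1.37 in WT, 0.949 and 0.989 in Nrde2-KO, 1.36 and 1.09 in Nrde2d200 and 1.35 and 1.03 in Nrde2D174R. In the second it was 3.18 and 2.97 in untreated WT and 2.07 and 1.70 in untreated Nrde2-KO. In Ribo-seq it was 0.922 and 0.924 in WT and 0.524 and 0.512 in Nrde2-KO. The ratio was thus lower than in every matched WT library in 6 of the 9 comparisons with WT. These were all those of Mtrex or Nrde2 without CHX, and 3 of them share their WT libraries. The margin was narrow in Nrde2d200 and Nrde2D174R, with 1.356 and 1.348 in replicate 1 against 1.369 in WT replicate 2. The ratio overlapped with WT in the other 3, those of Ccdc174-dTAG with and without CHX and of Nrde2-KO with CHX. How often other pairs of genes separate in this way was not counted. The level of the ratio also differed by experiment, and in RNA-seq of the first Nrde2 and Mtrex experiments no library reached the lowest value of the other RNA-seq libraries, 1.70. This is a description, since 2 libraries a group allow no exact test below 0.333.

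**Figure D4:**
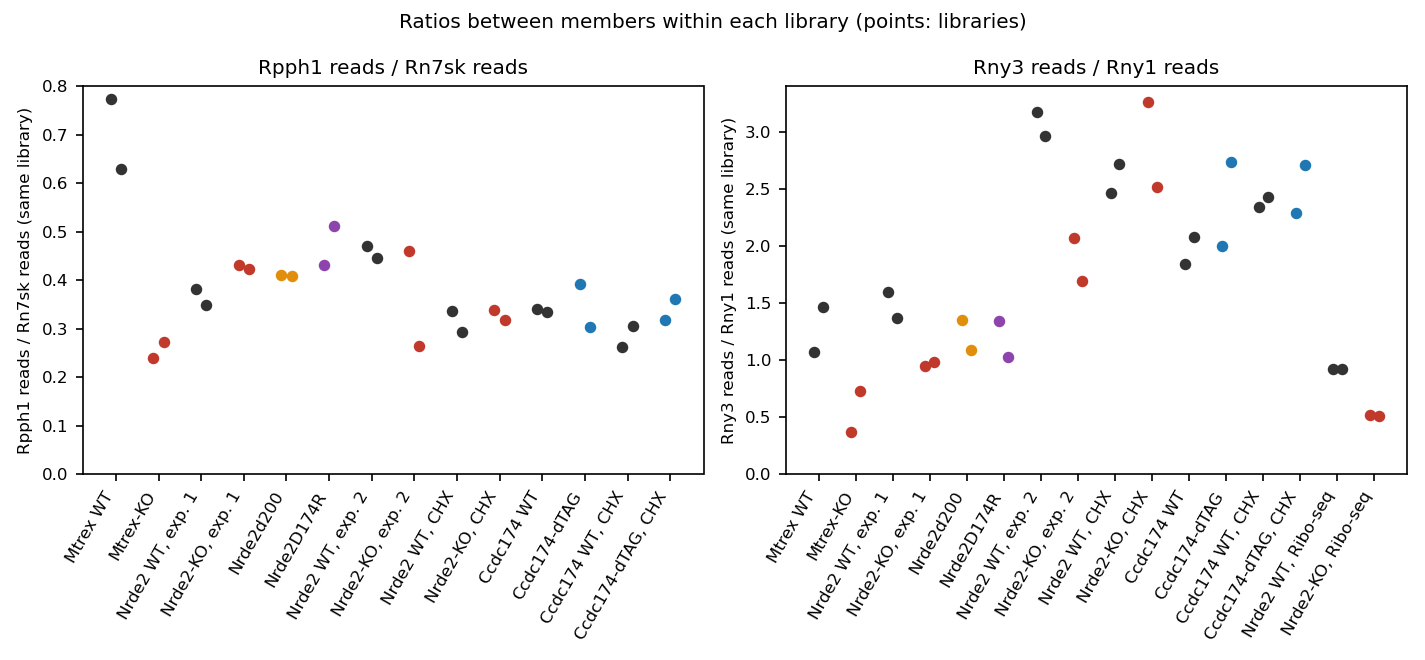
Reads of Rpph1 for each read of Rn7sk (left, RNA-seq) and reads of Rny3 for each read of Rny1 (right, RNA-seq and Ribo-seq) within each library, on linear axes from 0. Points are libraries. The Rpph1 ratio drops from 0.629 to 0.774 in Mtrex WT to 0.239 to 0.272 in Mtrex-KO, and the Rny3 ratio is lowest in RNA-seq in Mtrex-KO.

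Across the 14 RNA-seq groups, the order of the mean levels had few clear steps for Rpph1 and the Y RNAs. For Rn7sk the highest mean, 9227 in untreated Nrde2-KO of the second experiment, was 1.98 times the lowest, 4654 in Nrde2D174R, and 7 of the 13 neighbouring pairs in the order did not overlap. Mtrex-KO ranked second at 9143 ± 854 (SD, n = 2) and overlapped the first. For Rpph1 the means ran from 3873 in untreated Nrde2 WT of the second experiment to 1379 in Ccdc174 WT with CHX, and 10 of 13 neighbouring pairs overlapped. For Rny1 they ran from 14.8 ± 12.9 (SD, n = 2) in Mtrex-KO to 2.90 ± 0.222 in Nrde2 WT with CHX, and for Rny3 from 23.4 ± 8.99 in untreated Nrde2 WT to 6.53 ± 3.35 in Mtrex-KO. In each Y RNA 11 of 13 neighbouring pairs overlapped.

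As a description over these 28 libraries, which come from few experiments, Rny1 and Rny3 correlated at a Pearson r of 0.526 and Rn7sk and Rpph1 at 0.509 on log2 normalised CPM. The pairs of an abundant RNA and a Y RNA ran from -0.223 to 0.269. Among 15227 genes, those most like Rn7sk were Gm24146 (r = 0.872), an RNA gene that shares 42 stretches of 50 bases with it, the snoRNA Gm24336 (r = 0.861) and Nelfa (r = 0.843). Those most like Rpph1 were Tpt1 (r = 0.862), Bap1 (r = 0.830) and Ldb1 (r = 0.811). For Rny1 they were the snRNA genes Gm22513 (r = 0.930), Gm24407 (r = 0.914) and Gm23287 (r = 0.902), and for Rny3 Rpl3-ps1 (r = 0.824), Zdhhc12 (r = 0.779) and Gm6419 (r = 0.748).

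Among genes beside these RNAs, 8 could be tested in Mtrex-KO, of which 2 were called higher and 2 lower, against 15.8% and 10.9% of all genes. Gm21960, annotated as a processed pseudogene, lies 1075 bases from Terc at the lower coordinate on the same strand, hence past the 3′ end of Terc (chr3:96412910-96413361). It measured 22.6 and 16.04 normalised CPM in Mtrex-KO, from 648 and 462 reads, against 0.711 and 0.997 in Mtrex WT, from 26 and 35 reads. In the other 24 RNA-seq libraries it reached at most 1.71, so that only the Mtrex-KO libraries were high. It rose by 4.14 ± 0.286 on the log2 scale (SE; limma, adjusted p = 1.33e-09), and it exceeded that of Nrde2-KO in the first experiment by 3.82 (adjusted p = 1.24e-06). Terc itself remained at 0 in the same libraries.

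C920006O11Rik, a long noncoding RNA gene, starts 280 bases from the 5′ end of Rn7sk on the opposite strand (chr9:78175914-78178879). It measured 4.78 and 5.21 normalised CPM in Mtrex-KO against 1.64 and 2.54 in Mtrex WT (log2 fold change 1.19 ± 0.227, SE; limma, adjusted p = 0.000178). It was called higher with CHX in all 4 cell states as well, by 1.77 to 2.12 on the log2 scale, in the libraries where Rn7sk was lower. Neither Nrde2-KO nor Ccdc174-dTAG changed it detectably, with adjusted p of 0.156 to 0.725 in the 5 comparisons without or with CHX.

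Ccnb1ip1, whose exon overlaps Rpph1, measured 17.3 ± 0.409 (SD, n = 2) normalised CPM in Mtrex-KO against 41.6 ± 3.66 in Mtrex WT (log2 fold change -1.25 ± 0.123, SE; limma, adjusted p = 1.05e-07). In the annotation used here the 2 genes share bases on 1 strand, and reads of the shared part would be counted for neither. The authors counted with another GENCODE release and recorded 57054 to 145989 Rpph1 reads in the RNA-seq libraries. How the reads were split between the 2 genes was not tested. Parp2, a DNA repair enzyme gene that starts 73 bases from Rpph1 on the opposite strand, had a log2 fold change of -0.51 in Mtrex-KO (adjusted p = 0.000222). With loss of NRDE2, a result picked out after its values were seen, Parp2 fell by 1.31 in the first experiment, 1.15 in the second and 1.49 in Ribo-seq on the log2 scale (adjusted p = 7.95e-08, 2.80e-07 and 2.59e-09), where Rpph1 was uncalled. Its log2 fold change was -0.92 in Ccdc174-dTAG (adjusted p = 6.18e-06), and with CHX -0.31 in Ccdc174-dTAG and -0.41 in the libraries labelled Nrde2-KO (adjusted p = 0.00114 and 5.87e-05). Arhgef39, beside Rmrp, fell by 1.61 in Mtrex-KO (adjusted p = 1.87e-09).

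**Figure D5:**
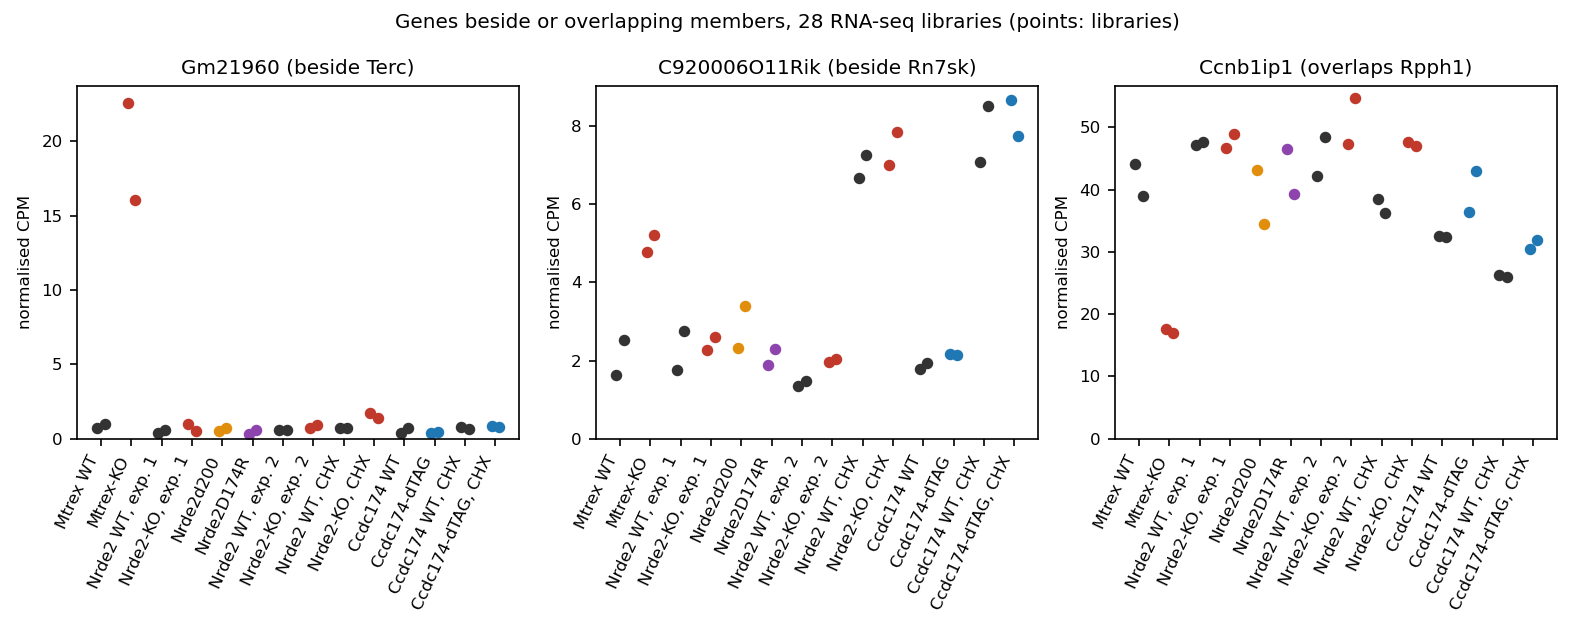
Normalised CPM (vertical axes, linear from 0) of Gm21960 beside Terc, C920006O11Rik beside Rn7sk and Ccnb1ip1 overlapping Rpph1, in the 14 RNA-seq groups. Points are libraries. Gm21960 is high only in Mtrex-KO (16.04 and 22.6), C920006O11Rik is higher in Mtrex-KO and in all CHX groups, and Ccnb1ip1 is lowest in Mtrex-KO.

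The protein partners of these RNAs were read against the 26.7% of all genes called in Mtrex-KO (15.8% higher and 10.9% lower). Of 7 genes of the 7SK particle and P-TEFb, 0 were called, with a median log2 fold change of -0.22 against -0.0017 over all genes tested. By the p threshold alone 2 were higher and 1 lower. Hexim1, which inhibits P-TEFb, was 0.77 higher (limma, adjusted p = 5.47e-05), and Larp7, which binds the 3′ end of 7SK RNA, had a log2 fold change of -0.60 (adjusted p = 0.000585). Of 11 RNase P and RNase MRP protein genes 1 was called, Rpp25 at -1.09 (adjusted p = 9.55e-07), and the median was -0.49. Another 6 of these 11 passed the p threshold alone with lower means, while 8323 of all 14889 genes passed it in either direction.

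In the same comparison, with 15.8% of all genes called higher and 10.9% lower, 1 of 7 telomerase and H/ACA protein genes rose, Tert at 1.06 (limma, adjusted p = 1.83e-07), and 1 fell, Nop10, a core H/ACA protein, at -1.68 (adjusted p = 9.58e-11). Of the 2 Y RNA binding proteins, Trove2, which encodes Ro60, had a log2 fold change of 0.61 (adjusted p = 4.33e-05) and Ssb, which encodes La, of -0.51 (adjusted p = 0.00130), and neither reached the fold threshold. Of 19 polymerase III genes 1 fell, Polr3gl at -1.16 (adjusted p = 4.60e-05). Polr3gl fell as well in Nrde2-KO, by 1.33 in the first experiment and by 1.26 in the second (adjusted p = 7.05e-05 and 0.000108). Of 8 genes for 3′ end trimming and oligoadenylation 0 were called, and the largest changes were Tent4a at -0.72 (adjusted p = 1.29e-05) and Usb1 at -0.62 (adjusted p = 8.61e-06).

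With CHX in Nrde2 WT, where Rn7sk was lower and 14.1% of all genes were called, Hexim1 fell by 1.01 (limma, adjusted p = 1.24e-05), Tent4a fell by 1.04 (adjusted p = 3.03e-08) and Rpp38, an RNase P and MRP protein gene, rose by 1.201 (adjusted p = 1.49e-07). Across Nrde2-KO and Ccdc174-dTAG, the only calls of these 6 lists were those of Polr3gl in Nrde2-KO without CHX of both experiments. In Nrde2-KO with CHX and in Ccdc174-dTAG, with or without CHX, no gene of these lists was called. The share of all genes called there was 5.01% and 4.84% in Nrde2-KO of the first and second experiment and 4.57% with CHX, and 1.38% and 0.911% in Ccdc174-dTAG without and with CHX.

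Other structured noncoding RNAs served as background. Of 22 listed rows of this kind only 9 could be tested in Mtrex-KO, of which 4 were called higher and 1 lower, against 15.8% and 10.9% of all genes, with a median log2 fold change of 0.88. Rnu2-10, a copy of the U2 spliceosomal RNA whose reads may be split among near-identical genes, rose by 3.00 (limma, adjusted p = 1.90e-09) and Rnu11, the U11 RNA of the minor spliceosome, by 2.23 (adjusted p = 5.91e-06), from 1.94 ± 0.194 to 10.2 ± 2.62 (SD, n = 2) normalised CPM. The other calls, named after their values were seen, were Rnu1a1 at 2.23, Rnu12 at 1.08 and Vaultrc5 at -1.46. The filter of 0.5 CPM averaged over all libraries of the fit, Mtrex-KO included, so a row could pass it by being high there. Rnu1a1 had a median of 0.351 normalised CPM over the RNA-seq libraries and a highest value of 2.83. The count called higher and the median of this list may be raised in this way. Rprl3 and Rprl2 gave -0.54 and -0.43 (adjusted p = 0.557 and 0.387). Rnu2-10 and Rnu11 are made by RNA polymerase II, as Terc is. With CHX in Nrde2 WT 0 of 7 tested rows of this kind were called higher and 3 lower, where 14.1% of all genes were called and 2.91% lower, Rnu11 and, named after their values were seen, Snord118 and Rnu73b.

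Markers of other cell types moved in Mtrex-KO beside these changes, where 15.8% of all genes were called higher and 10.9% lower. The 3 tested trophectoderm markers were called higher, Krt8 from 42.8 to 187 normalised CPM, Krt7 from 0.395 to 5.74 and Cdx2 from 1.198 to 4.09. Elf5 of the same list reached at most 0.314 and was not tested. Krt7 had a median of 0.431 over the RNA-seq libraries, so it may have passed the filter of 0.5 CPM through Mtrex-KO. Of 3 tested primitive endoderm markers 1 was called higher, Gata6, from 0.377 to 4.82. Of the 8 stem cell markers Nanog was called lower, at -1.03 on the log2 scale (limma, adjusted p = 4.99e-06). Among the other lists Col1a1 rose by 1.09, while Thy1, T and Tubb3 fell by 1.46, 1.41 and 1.64 on the log2 scale (adjusted p = 0.00647, 0.000146, 0.00116 and 4.31e-06). Their part in the levels of the 4 RNAs was not tested.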

How the data were processed

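RNA-seq (28 libraries, stranded total RNA depleted of ribosomal RNA, 50-base single reads) and Ribo-seq (4 libraries) were used, and 16 BCLIP-seq samples were not analysed here. The deposited values were CPM: the authors used STAR 2.7.3a with the mm10 genome, counted unique reads on the correct strand with featureCounts over GENCODE M23 exons, dropped reads shared by genes, and divided by library totals. Dividing by the value of 1 read gave whole numbers within 0.1 for 100% of values, which recovered the reads. Reads in genes numbered 28683644 to 36272309 for RNA-seq and 3475051 to 5035940 for Ribo-seq, and intervals and floors (3 reads) cover counting error only.

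Groups came from the sample labels. CPM was divided by median-of-ratios factors, 0.25 was added and log2 values were tested with limma 3.58.1 (trend, R 4.3.3) over all genes that averaged 0.5 CPM or more, with Benjamini-Hochberg adjustment over all of them. RNA-seq without CHX (14889 genes), RNA-seq with CHX (15476), the 2 CHX experiments together (15133), Ribo-seq (13857) and both assays together (14700) were fitted separately. Alternatives were other filters, pseudocounts and scalings, edgeR 4.0.16 and DESeq2 1.42.0 on the recovered reads, fits of only the compared groups, a replicate block and each replicate left out. Positions, uniqueness and sequences came from GRCm38 with GENCODE M21, the M23 annotation being not used here. The 6 genes, the gene lists and the neighbours (the nearest annotated gene on each side and overlapping genes) were chosen with earlier results of these data known. The named genes were the members, up to 4 called genes of each list (or the 2 with the largest change in Mtrex-KO), up to 4 other structured RNAs by mean CPM, the neighbours, and the 3 genes most correlated with each member. In 13 comparisons of groups the 4 measured RNAs gave 52 tests.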

Additional observations from a re-analysis of the deposited data

Results flagged for a closer look

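In 4 cases the effect on 1 of the RNAs differed between settings by a limma contrast of the effects themselves (adjusted p under 0.05, a level set after these p-values had been seen). Rn7sk rose more in Mtrex-KO than in Nrde2-KO of the first experiment, by 0.828 on the log2 scale (0.83 against 0.00; adjusted p = 0.00160). That difference ran from 0.37, on the CPM as deposited, to 0.92 over its alternatives, with an adjusted p of up to 0.195. Rn7sk also rose more in Mtrex-KO than in Ccdc174-dTAG without CHX, by 0.7214 (0.83 against 0.11; adjusted p = 0.00341), which ran from 0.30, on the CPM as deposited, to 0.89, with an adjusted p of up to 0.28. The effect of Nrde2-KO on Rny3 was higher with CHX than without it, by 1.766 (0.25 against -1.51; adjusted p = 0.0277), and DESeq2 gave 1.88 (adjusted p = 0.00802). Over all alternatives it ran from 1.37 to 2.16, and the adjusted p reached 0.12 without replicate 2 of Nrde2-KO with CHX. The effect of Nrde2-KO on Rn7sk was higher in Ribo-seq than in RNA-seq, by 0.501 (0.51 against 0.00; adjusted p = 0.0368), which ran from 0.33 to 0.67, with an adjusted p of up to 0.181, without a filter on low values. With 2 libraries a group, no group was tested for a single library far from the others.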

How the results depend on the processing

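Of 1088 alternative values for the RNAs, 16 lost the threshold, 4 gained it and 2 reversed with a p under 0.05 on at least 1 side. The other 1066 stayed on their side of the threshold, and 54 of all values changed sign with no p under 0.05 on either side. The reversals were Rny1 in Mtrex-KO, 0.91 without Mtrex-KO replicate 2 and -1.12 without replicate 1, and Rny1 in Nrde2-KO with CHX, -0.44 without Nrde2-KO replicate 2 and 0.66 without replicate 1. Without a filter on low values, the RNAs called fell to 0 in Mtrex-KO (from 1), 0 in Nrde2-KO of the second experiment (from 1) and 1 for CHX in Nrde2 WT (from 2). On the CPM as deposited they were 2 in Mtrex-KO, with Rpph1 added, 1 in each of the contrasts of Mtrex-KO with Nrde2-KO and with Ccdc174-dTAG (from 0; Rpph1), 1 for CHX in Nrde2 WT and 0 in Ribo-seq (from 1). A fit of only the compared groups gave 0 in Mtrex-KO, and DESeq2 gave 1 for the interaction of Nrde2-KO and CHX (from 0). Leaving out 1 replicate gave 0 to 1 in Mtrex-KO, in Nrde2-KO of the second experiment and in Ribo-seq, and 1 to 2 for CHX in Nrde2 WT. The cause was not tested. Rn7sk in Mtrex-KO ranged from 0.43 to 0.93 on the log2 scale. With the replicate number as a block, the Mtrex-KO values were 0.83 for Rn7sk (limma, adjusted p = 1.50e-05), -0.62 for Rpph1 (0.0159), -0.11 for Rny1 (0.850) and -1.34 for Rny3 (0.00170), and the block changed no call. The labels do not say that numbers mark pairs, and deviations of same-numbered libraries correlated at -0.0333 to 0.422. In Ribo-seq a fit without 1 library has 1 residual degree of freedom, so that only its log2 values are given. Few reads limit the Y RNAs, at 84 to 1015 an RNA-seq library. Over all genes, the number called in Mtrex-KO was 3972 and ran from 3179 to 5638, and edgeR on the recovered reads called 4202. Counts moved by over 1.5 times under some alternative elsewhere: 746 in Nrde2-KO of the first experiment (398 to 864), 720 in the second (474 to 842) and 707 with CHX (398 to 855), 395 in Nrde2d200 (138 to 528), 32 in Nrde2D174R (0 to 72), 206 in Ccdc174-dTAG (116 to 233) and 141 with CHX (49 to 185), 890 in Ribo-seq (561 to 1105), 2133 for CHX in Nrde2 WT (1343 to 2537), 2122 in Nrde2-KO (1388 to 2509), 2315 in Ccdc174 WT (1473 to 2806) and 2200 in Ccdc174-dTAG (1391 to 2823). So did those for the differences of effects, 26 for Nrde2-KO with CHX (5 to 58), 11 for Ccdc174-dTAG with CHX (0 to 18) and 1.18% of genes for Ribo-seq against RNA-seq (0 to 231 genes).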
